A study of Xenopus laevis with 12 samples.

Results

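Neurobots were compared with sham neurobots, gene by gene, in RNA from whole bots of the frog Xenopus laevis. All genes that passed an expression filter were included, 24542 of the 44478 genes in the deposited tables. Neurobots (NB1 to NB4) are animal caps of wild-type embryos, taken at stage 9, into which embryonic cells were implanted after they had been kept dissociated for several hours. Sham neurobots (SH1 to SH4) were made from the same kind of caps and implants, except that the implanted cells were allowed to reaggregate right after dissociation. Both groups therefore carry an implant, in caps from embryos fertilised later than the donors of the implant. The animals were wild type, and no transgene, edited allele or drug is named for either group. Biobots (BB1 to BB4), closed caps without an implant, are given only beside single values. The comparison asks what differs in expression when the implanted cells had been kept apart before implantation. Each library came from a pool of bots, 14 in NB1, 12 in each of NB2, NB3 and NB4, 5 in SH1 and SH4 and 6 in SH2 and SH3. Pool size and group therefore cannot be told apart. The age of the bots at RNA extraction is not given in the sources used here. NB1 was part of a first submission for sequencing, whereas the other neurobots and all shams were part of a second.

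Cells of the early ectoderm are held in an epidermal fate by BMP signals that pass between neighbouring cells. When that signal is blocked by secreted antagonists such as Noggin, Chordin and Follistatin, or when the cells are dispersed, they turn on Sox and Zic factors of the neural plate, then proneural basic helix-loop-helix factors, and then the cytoskeletal and synaptic genes of neurons. The epidermis of the frog embryo is itself a mixture of multiciliated cells, ionocytes, mucus-secreting goblet cells and small secretory cells. X. laevis is an allotetraploid, so that many genes exist as a pair of homeologs on the L and S subgenomes, marked by the suffix of the gene name.

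Levels are given as FPKM, reads per kilobase of gene length scaled to the effective library size, which can be compared between genes. Differences were tested on the counts with edgeR's quasi-likelihood test, and the words higher and lower, rose and fell are kept for genes with an adjusted p under 0.05 after the Benjamini-Hochberg procedure. Fold changes are on the log2 scale as neurobots minus shams, with ± for the standard error of the fit and 4 libraries a group. Where no library of a group had more than 3 counts, the fitted value is not printed and the fold against 3 counts per library is given as a lower bound. The p-values measure the spread between these pools, and within whole bots, fewer cells of a type and less RNA per cell cannot be told apart.

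Of the genes tested, 4822 were higher in neurobots (19.6%) and 3243 were lower (13.2%), together 8065 or 32.9%. Over all genes tested the log2 fold change had a median of 0.0078. The median over the genes called higher was 2.02 and that over the genes called lower was -1.03. More than 4-fold differences made up 50.2% of the higher genes but 11.3% of the lower ones. With genes at the floor of 3 counts set to their bounds, 964 genes were higher by more than 4 on the log2 scale (3.93%) and 21 were lower by as much (0.0856%), and past 8 there were 28 higher genes and 0 lower. These counts and the order by bounds given for the largest rises were chosen after seeing the data. The 4 neurobots lay entirely above or below the 4 shams in FPKM for 8541 genes (34.8%), above for 5018 (20.4%) and below for 3523 (14.4%). The genes called higher were mostly at low levels in shams, with a median of 0.413 FPKM there, of 2.59 FPKM in neurobots and of 0.401 FPKM in biobots. The genes called lower had medians of 5.48 FPKM in shams, 2.77 FPKM in neurobots and 5.08 FPKM in biobots. Genes called higher took 13.9% to 18.0% of all counts in the neurobots and 7.04% to 7.46% in the shams. In 507 of the genes called higher, no sham exceeded 3 counts. Such a gene entered the test only through the neurobots, and for 386 of the 507 no biobot exceeded 3 counts either. At levels of 1 FPKM or more in every neurobot and under 0.1 FPKM in every sham there were 147 genes, of which 121 were also under 0.1 FPKM in every biobot, against 1 gene with the converse pattern.

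Totals per library ran from 27265034 to 37985824 counts. At an equal depth of 27265034 counts, 31442 ± 1200 genes (SD, n = 4) had at least 1 count in neurobots and 30549 ± 1090 in shams, a difference of 893.2 genes that did not exceed the spread of the pools (two-sided exact permutation test, p = 0.314, where the 70 splits allow 0.0286). The share of counts on the 100 most counted genes was 27.8% ± 4.18 in neurobots and 27.8% ± 2.69 in shams (SD, n = 4, exact permutation p = 1.0). Genes shorter than 1 kb held 21.25%, 20.67% and 19.76% of the counts in NB1, NB2 and SH2 and 11.93% to 15.67% in the other neurobots and shams. NB1 stood apart from NB2, NB3 and NB4. It was the lowest neurobot for 55.2% of the genes called higher and the highest for 13.9% of them. Of the genes called lower it was the highest for 38.9% and the lowest for 28.6%. NB1 was at a median of 0.714 of the mean of the other neurobots over the higher genes. Over the lower genes NB1 was at 1.02 of that mean, and over all genes tested at 0.924. Without it, 11067 genes were called, 6277 higher and 4790 lower. Without SH3 or SH4 the lower genes numbered 2010 and 2032. Leaving out NB1 leaves only libraries of the second submission, so it is also the comparison within that submission.

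**Figure D1:**
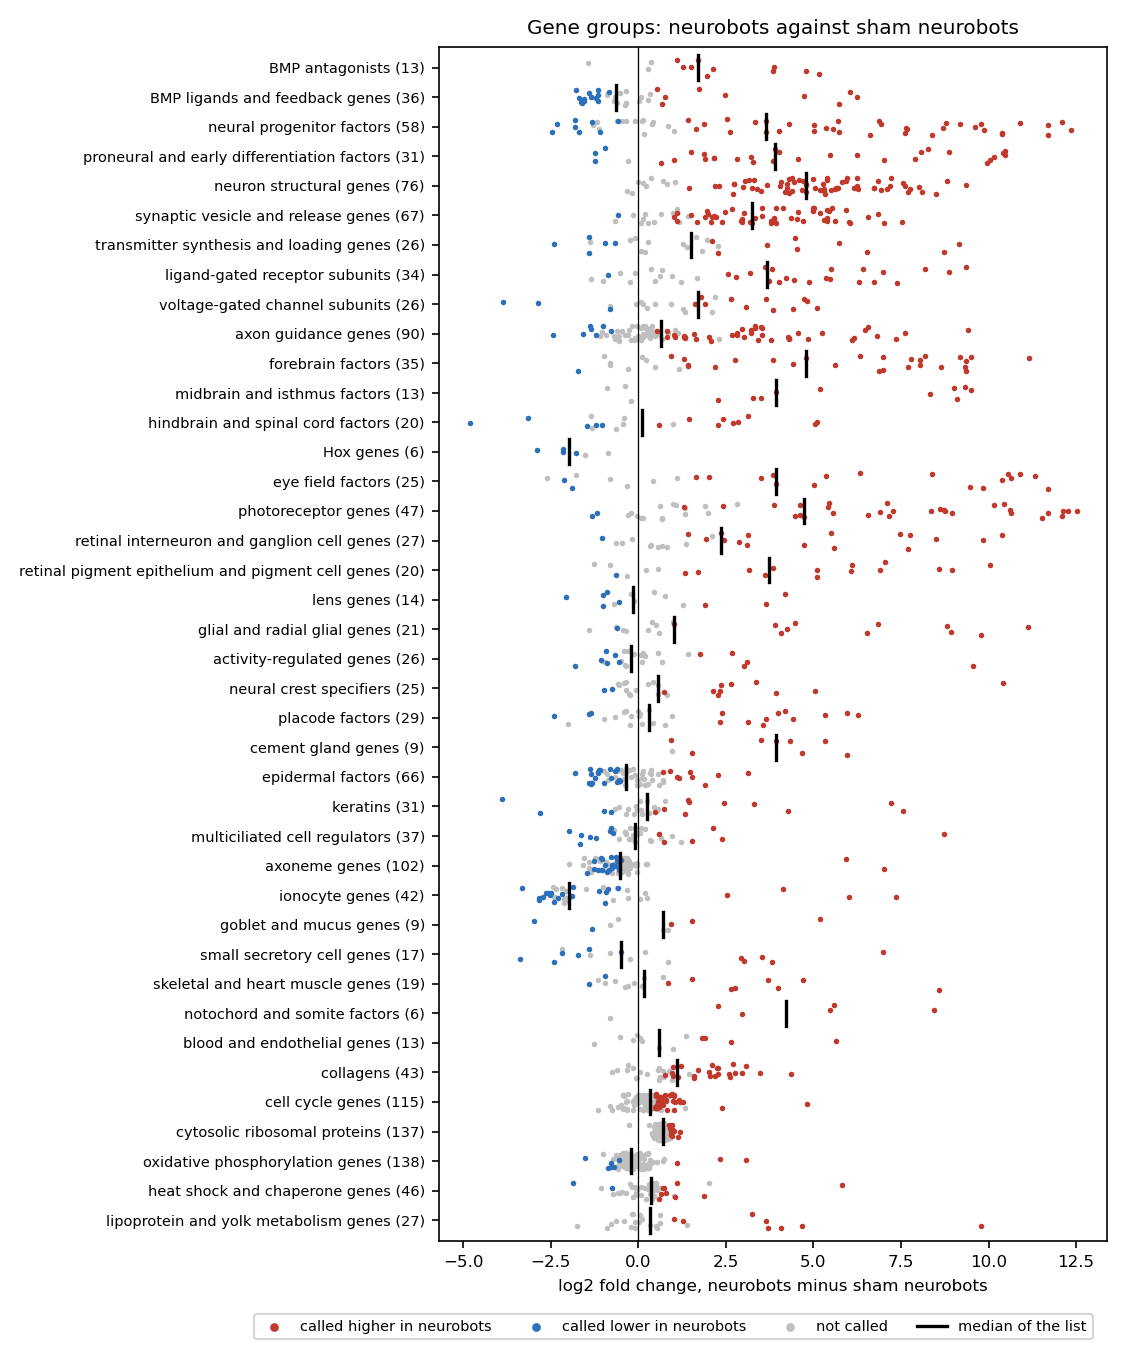
Log2 fold change (neurobots minus sham neurobots, horizontal axis) of each tested gene in 40 gene groups, with the number of tested genes in parentheses. Points are genes, red where called higher, blue where called lower and grey where not called, and the bar is the median of the group. Genes at the floor in a group are drawn at their fitted values, which are no bounds. Neuron structural genes had a median of 4.79 and 67 of 76 called higher, and ionocyte genes a median of -1.97 and 19 of 42 called lower.

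Genes were grouped by role into 41 lists. The plot of fold changes by gene group shows the 40 lists with at least 6 tested genes, and the shares above are the background against which each count should be read. Counts rich in genes at the floor in shams compare less directly, since such genes entered the test only through the neurobots. They made up 507 of all 4822 genes called higher. Among the higher genes they were 17 of 30 photoreceptor, 15 of 26 forebrain, 16 of 36 neural progenitor and 12 of 27 proneural genes. They were also 10 of 17 eye field, 11 of 21 ligand-gated receptor and 11 of 67 neuron structural genes. The same held for 6 of 10 midbrain and isthmus, 7 of 16 retinal interneuron and ganglion cell and 3 of 5 notochord and somite genes. Of the secreted BMP antagonists, 10 of 13 tested genes were higher and 0 were lower, with a median of 1.71. Follistatin, fst.L, which binds activins and BMPs, measured 2.04, 12.9, 7.95 and 8.96 FPKM in NB1 to NB4 and 0.199, 0.116, 0.135 and 0.408 FPKM in SH1 to SH4. All 4 neurobots lay above all shams, with NB1 the lowest (log2 fold change 5.16 ± 0.61, adjusted p = 0.000203). Noggin, nog.L, a direct inhibitor of BMP ligands, measured 2.94, 2.87, 2.59 and 2.63 FPKM in NB1 to NB4 and 0.214, 0.064, 0.205 and 0.258 FPKM in SH1 to SH4. Its 4 neurobots were close to each other and well above the shams (log2 fold change 3.84 ± 0.39, adjusted p = 8.63e-05), as were those of nog.S (3.88 ± 0.49). The copies of Chordin, chrd.1.S, chrd.1.L and chrd.2.L, had too few counts to be tested, with 11, 9, 34 and 40 counts in NB1 to NB4 and 0 in all 4 shams for chrd.1.S. BMP ligands and the feedback genes that BMP signalling turns on went both ways, with 9 of 36 tested genes higher, 13 lower and a median of -0.64. The ligand bmp7.1 was higher in both homeologs, with log2 fold changes of 1.74 for bmp7.1.L and 0.68 for bmp7.1.S. The vent homeobox genes, targets of BMP4 in the gastrula, were higher in all 4 tested genes and are described further below. The ligand bmp4 was called in neither homeolog, with log2 fold changes of 0.33 ± 0.14 for bmp4.L and 0.03 ± 0.18 for bmp4.S. However, bmp4.L was called higher without NB2 and without NB1, NB2 and SH2. It was also called higher with the share of counts on genes under 1 kb as a covariate. Another ligand, bmp2.S, measured 0.898, 0.379, 0.878 and 0.86 FPKM in NB1 to NB4 and 2.29, 2.49, 1.84 and 2.88 FPKM in SH1 to SH4. All neurobots lay below all shams (log2 fold change -1.69 ± 0.30, adjusted p = 0.00225), and the biobots, between 0.57 and 1.16 FPKM, lay with the neurobots. The inhibitory Smad smad7.S, a feedback gene of the pathway, measured 1.43, 0.47, 1.7 and 1.3 FPKM in NB1 to NB4 and 3.97, 4.05, 3.54 and 4.79 FPKM in SH1 to SH4. It too was lower in every neurobot (log2 fold change -1.77 ± 0.34, adjusted p = 0.00333), again with the biobots low, between 1.22 and 1.66 FPKM. The pseudoreceptor bambi.L measured 73, 16.6, 23 and 27.2 FPKM in NB1 to NB4 and 82.8, 130.3, 98.2 and 110.4 FPKM in SH1 to SH4. NB1 was close to the lowest sham while NB2, NB3 and NB4 were well below (log2 fold change -1.63 ± 0.42, adjusted p = 0.0146). The S copy, bambi.S, was lower as well (-1.15), but not without NB2, NB3, NB4, SH2, SH3 or SH4. The helix-loop-helix feedback gene id3 was not called, at -0.37 ± 0.22 for id3.L and 0.29 ± 0.22 for id3.S. Its L copy was called lower with library size alone, with the covariate, without NB1 and without NB1, NB2 and SH2. Without NB1, 18 of the 36 genes were lower.

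Neural plate and progenitor factors were higher in most tested members. Of 68 members in the files, 58 were tested, 36 of them higher and 8 lower, with a median of 3.65, or 3.48 with genes at the floor set to their bounds. Their summed level was between 249 and 444 FPKM in the neurobots and between 134 and 155 FPKM in the shams. Sox2, the HMG-box factor that marks neural progenitors, lies in sox2.L on chromosome 5L, 114959594 to 114960783 of the v10.1 build and measured 13.6, 29.1, 29.1 and 20.1 FPKM in NB1 to NB4 and 0.126, 0, 0 and 0.123 FPKM in SH1 to SH4. Every neurobot was at 13.6 FPKM or more and no sham exceeded 0.126 FPKM (log2 fold change 8.38 ± 0.61, adjusted p = 1.79e-05). Its relative sox3.S measured 4.44, 10.7, 14.3 and 9.9 FPKM in NB1 to NB4 and 0.798, 0.649, 0.691 and 0.89 FPKM in SH1 to SH4. The shams held a low level of this gene throughout, and the neurobots did not overlap with them (log2 fold change 3.66 ± 0.35, adjusted p = 6.9e-05), nor did those of sox3.L (4.01 ± 0.56). The zinc-finger factor zic2.L, a neural plate and dorsal midline gene, measured 3.43, 5.75, 10.5 and 8.1 FPKM in NB1 to NB4 and 0 in all 4 shams. It was detected in every neurobot and in no sham (at least 214-fold higher, adjusted p = 6.54e-05). Its paralog zic1.L was at or under 3 counts in every sham as well (at least 165-fold higher, adjusted p = 1.62e-05). The POU factor pou3f1.S went the other way and measured 1.07, 0.887, 1.41 and 1.43 FPKM in NB1 to NB4 and 3.52, 4.67, 6.65 and 8.37 FPKM in SH1 to SH4. All neurobots lay below all shams (log2 fold change -2.31 ± 0.32, adjusted p = 0.00053). The forkhead gene foxd4l1.2.L, an early neural ectoderm gene in the frog, was also lower (-2.45 ± 0.66, adjusted p = 0.0181), though not without SH1.

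Proneural and early differentiation factors followed the same direction. Of 57 members in the files, 31 were tested, 27 of them higher and 3 lower, with a median of 3.91, or 3.44 with genes at the floor set to their bounds. The differentiation factor neurod1.L measured 6.57, 10.9, 6.94 and 8.02 FPKM in NB1 to NB4 and 0, 0, 0.0136 and 0.0472 FPKM in SH1 to SH4. Its homeolog neurod1.S measured 6.33, 10.12, 9.1 and 9.56 FPKM in NB1 to NB4 and 0.0258, 0, 0 and 0 FPKM in SH1 to SH4. Both copies were high in all 4 neurobots, NB1 included, and near 0 in the shams (neurod1.L, log2 fold change 8.87 ± 0.55, adjusted p = 1.07e-05, and neurod1.S, at least 217-fold higher, adjusted p = 4.57e-06). Neurogenin, neurog2.L, which commits progenitors to a neuronal fate, measured 1.37, 0.885, 1.53 and 1.32 FPKM in NB1 to NB4 and 0, 0.0296, 0 and 0 FPKM in SH1 to SH4. It was present in every neurobot at a lower level than neurod1 (at least 26.7-fold higher, adjusted p = 9.04e-05). The later factors neurod4.L (2.45, 2.87, 2.11 and 2.29 FPKM in NB1 to NB4 and 0 in all 4 shams) and ebf2.S (2.93, 1.78, 2.06 and 1.96 FPKM in NB1 to NB4 and 0 in all 4 shams) were likewise found in every neurobot and no sham. They were at least 57.9-fold higher, adjusted p = 2.94e-05, and at least 57.5-fold higher, adjusted p = 4.28e-05, respectively. Of the 3 genes called lower, the Notch ligand dll4.L measured 0.915, 0.743, 0.808 and 0.813 FPKM in NB1 to NB4 and 2.01, 1.13, 2.58 and 1.81 FPKM in SH1 to SH4 (log2 fold change -1.24 ± 0.27, adjusted p = 0.00684) and the transcriptional repressor bhlhe40.L measured 9.53, 5.91, 8.69 and 7.36 FPKM in NB1 to NB4 and 17.1, 22.3, 16.2 and 16.4 FPKM in SH1 to SH4 (log2 fold change -1.23 ± 0.19, adjusted p = 0.00109). Neither overlapped between the groups.

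Genes of the neuronal cytoskeleton and cell body were nearly all called higher. Of 78 members in the files, 76 were tested, 67 of them higher and 0 lower, with a median of 4.79, or 4.63 with genes at the floor set to their bounds. The beta-tubulin tubb2b.S measured 121, 167, 105 and 118 FPKM in NB1 to NB4 and 1.22, 0.944, 0.196 and 0.153 FPKM in SH1 to SH4. The other copy, tubb2b.L, measured 37.8, 113, 61.5 and 65.5 FPKM in NB1 to NB4 and 2.57, 4.41, 2.7 and 3.29 FPKM in SH1 to SH4. NB2 was the highest for both, and the shams were higher for tubb2b.L than for tubb2b.S (log2 fold changes of 7.62 ± 0.65 for tubb2b.S and 4.38 ± 0.35 for tubb2b.L, adjusted p = 3.61e-05 and 2.93e-05). Stathmin 2, stmn2.L, which regulates microtubules in growing axons, measured 32, 45.1, 23.1 and 25 FPKM in NB1 to NB4 and 0.0700, 0.068, 0.0197 and 0.0171 FPKM in SH1 to SH4. NB1 lay within the range of the other neurobots for this gene (log2 fold change 9.35 ± 0.41, adjusted p = 3.07e-06). The neuronal RNA-binding protein elavl3.L measured 1.43, 2.63, 2.53 and 2.59 FPKM in NB1 to NB4 and 0.106, 0.0397, 0 and 0.00799 FPKM in SH1 to SH4 (log2 fold change 5.8 ± 0.68, adjusted p = 0.000202). The neurofilament light chain nefl.L measured 1.28, 0.586, 0.592 and 0.776 FPKM in NB1 to NB4 and 0 in all 4 shams. Its level was highest in NB1 (at least 18.15-fold higher, adjusted p = 0.000328).

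Synaptic vesicle and release genes rose in 54 of 67 tested genes and fell in 1, with a median of 3.25, or 3.20 with genes at the floor set to their bounds. Snap25, part of the complex that fuses vesicles with the membrane, measured 4.86, 11.1, 7.22 and 7.02 FPKM in NB1 to NB4 and 0.248, 0.0602, 0.042 and 0.085 FPKM in SH1 to SH4 for snap25.L. The groups did not overlap (log2 fold change 6.04 ± 0.50, adjusted p = 3.31e-05). Synapsin, syn1.L, which coats synaptic vesicles, measured 3.22, 1.58, 4.25 and 3.72 FPKM in NB1 to NB4 and 1.3, 0.606, 1.19 and 1.28 FPKM in SH1 to SH4. The shams reached close to the level of NB2, the lowest neurobot (log2 fold change 1.51 ± 0.35, adjusted p = 0.00834). The gene that fell was syt1.L, the calcium sensor of vesicle release, with 27.3, 25.5, 25 and 23.9 FPKM in NB1 to NB4 and 35, 38.6, 38.3 and 37.1 FPKM in SH1 to SH4. All neurobots lay below all shams (log2 fold change -0.59 ± 0.14, adjusted p = 0.00923), and the biobots were higher still, between 45.1 and 47.4 FPKM. Another synaptotagmin, syt6.L, measured 0.164, 0.242, 0.211 and 0.176 FPKM in NB1 to NB4 and 0 in all 4 shams (at least 7.43-fold higher, adjusted p = 0.000506).

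Transmitter genes were called less uniformly, with 9 of 26 tested genes higher and 5 lower (median 1.52). The vesicular glutamate transporter slc17a7.L measured 2.06, 2.38, 5.44 and 4.66 FPKM in NB1 to NB4 and 0, 0, 0.0295 and 0 FPKM in SH1 to SH4. All neurobots lay above all shams, NB3 and NB4 the highest (at least 88.8-fold higher, adjusted p = 3.61e-05). The vesicular transporter for GABA and glycine, slc32a1.S, measured 0.244, 0.949, 0.733 and 0.704 FPKM in NB1 to NB4 and 0 in all 4 shams (at least 23-fold higher, adjusted p = 0.000484). Transcripts of the enzyme that makes GABA differed in direction between its gene copies. The gene gad1.1.L measured 0.223, 1.14, 1.3 and 1.22 FPKM in NB1 to NB4 and 0.00864, 0.0378, 0 and 0.0211 FPKM in SH1 to SH4. It was higher in every neurobot (log2 fold change 5.73 ± 0.78, adjusted p = 0.000456), and gad1.1.S was higher too (4.47). In contrast, gad1.2.S measured 10.4, 2.77, 2.52 and 3.01 FPKM in NB1 to NB4 and 8.73, 14.3, 12.8 and 12.3 FPKM in SH1 to SH4. NB1 lay within the shams and NB2, NB3 and NB4 far below them (log2 fold change -1.40 ± 0.44, adjusted p = 0.0338), and the call was lost without NB2, NB3, NB4, SH2, SH3 or SH4. Its homeolog gad1.2.L was left out by the filter, with 20, 23, 5 and 3 counts in NB1 to NB4 and 3, 1, 4 and 4 in SH1 to SH4. The 5 lower genes of this list became 2 without NB2, NB3, SH3 or SH4 and 3 without NB4, SH1 or SH2. The serotonin transporter slc6a4.S was at low levels, between 0.109 and 0.193 FPKM in shams and between 0 and 0.0759 FPKM in neurobots (-2.41 ± 0.79, adjusted p = 0.0395), and lost the call without NB2, NB3, SH1, SH2, SH3 or SH4. It also lost the call with library size alone and with the replicate block.

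Of the ligand-gated receptor subunits, 21 of 34 tested genes were higher and 1 was lower, with a median of 3.67, or 2.94 with genes at the floor set to their bounds. The AMPA receptor subunit gria2.S measured 2.21, 0.835, 2.44 and 2.06 FPKM in NB1 to NB4 and 0.00634, 0.0308, 0.0143 and 0.0372 FPKM in SH1 to SH4. It was higher in every neurobot (log2 fold change 6.31 ± 0.53, adjusted p = 3.54e-05). The nicotinic subunit chrna4.S (0.327, 0.323, 1.97 and 1.3 FPKM in NB1 to NB4 and 0 in all 4 shams) and the GABA-A subunit gabra6.S (0.268, 1.3, 1.02 and 1.1 FPKM in NB1 to NB4 and 0 in all 4 shams) were found in every neurobot and in no sham. They were at least 26.8-fold higher, adjusted p = 0.00199, and at least 18.9-fold higher, adjusted p = 0.000859. The NMDA receptor subunit grin1.L was not called, with 0.259, 0.224, 0.919 and 0.725 FPKM in NB1 to NB4 and 0.443, 0.0823, 0.316 and 0.51 FPKM in SH1 to SH4 (log2 fold change 0.62 ± 0.60). However, grin1.L was called higher with the share of counts on genes under 1 kb as a covariate and without NB1, NB2 and SH2. The serotonin-gated channel htr3a.L, the only subunit called lower, measured 75, 39.6, 40.9 and 38.1 FPKM in NB1 to NB4 and 91.4, 82, 86.6 and 86.3 FPKM in SH1 to SH4. The biobots were between 99.7 and 125 FPKM, and NB1 was the neurobot nearest to the shams (log2 fold change -0.88 ± 0.23, adjusted p = 0.017). Voltage-gated channel subunits were higher in 11 of 26 tested genes and lower in 3 (median 1.71). The sodium channel scn1a.S measured 0.169, 0.272, 0.474 and 0.673 FPKM in NB1 to NB4 and 0.0287, 0.0105, 0.00405 and 0 FPKM in SH1 to SH4. The potassium channel kcna4.S measured 0.583, 0.18, 0.217 and 0.23 FPKM in NB1 to NB4 and 4.82, 2.64, 4.88 and 4.88 FPKM in SH1 to SH4. The sodium channel was higher in all neurobots (log2 fold change 5.1 ± 0.78, adjusted p = 0.000901) and the potassium channel lower in all (log2 fold change -3.87 ± 0.41, adjusted p = 0.000107). A related potassium channel, kcna3.S, was lower too (-2.88 ± 0.59), while kcna5.L was higher, at most 0.264 FPKM in any neurobot. Axon guidance genes were higher in 41 of 90 and lower in 7, with a median of 0.64. The netrin ntn5.L measured 0.915, 7.36, 7.48 and 5.67 FPKM in NB1 to NB4 and 0, 0, 0 and 0.0235 FPKM in SH1 to SH4 and the receptor robo2.S 0.14, 0.133, 0.48 and 0.336 FPKM in NB1 to NB4 and 0, 0, 0.00509 and 0.00441 FPKM in SH1 to SH4. Both were above every sham in every neurobot (at least 142-fold higher, adjusted p = 9.86e-05, and at least 19.3-fold higher, adjusted p = 0.000295). The repellent sema3e.S measured 0.14, 0.0395, 0.13 and 0.17 FPKM in NB1 to NB4 and 0.914, 0.478, 0.59 and 0.600 FPKM in SH1 to SH4 and was lower (log2 fold change -2.45 ± 0.46, adjusted p = 0.0029). The lower genes of this list numbered 4 without SH1 or SH4.

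**Figure D2:**
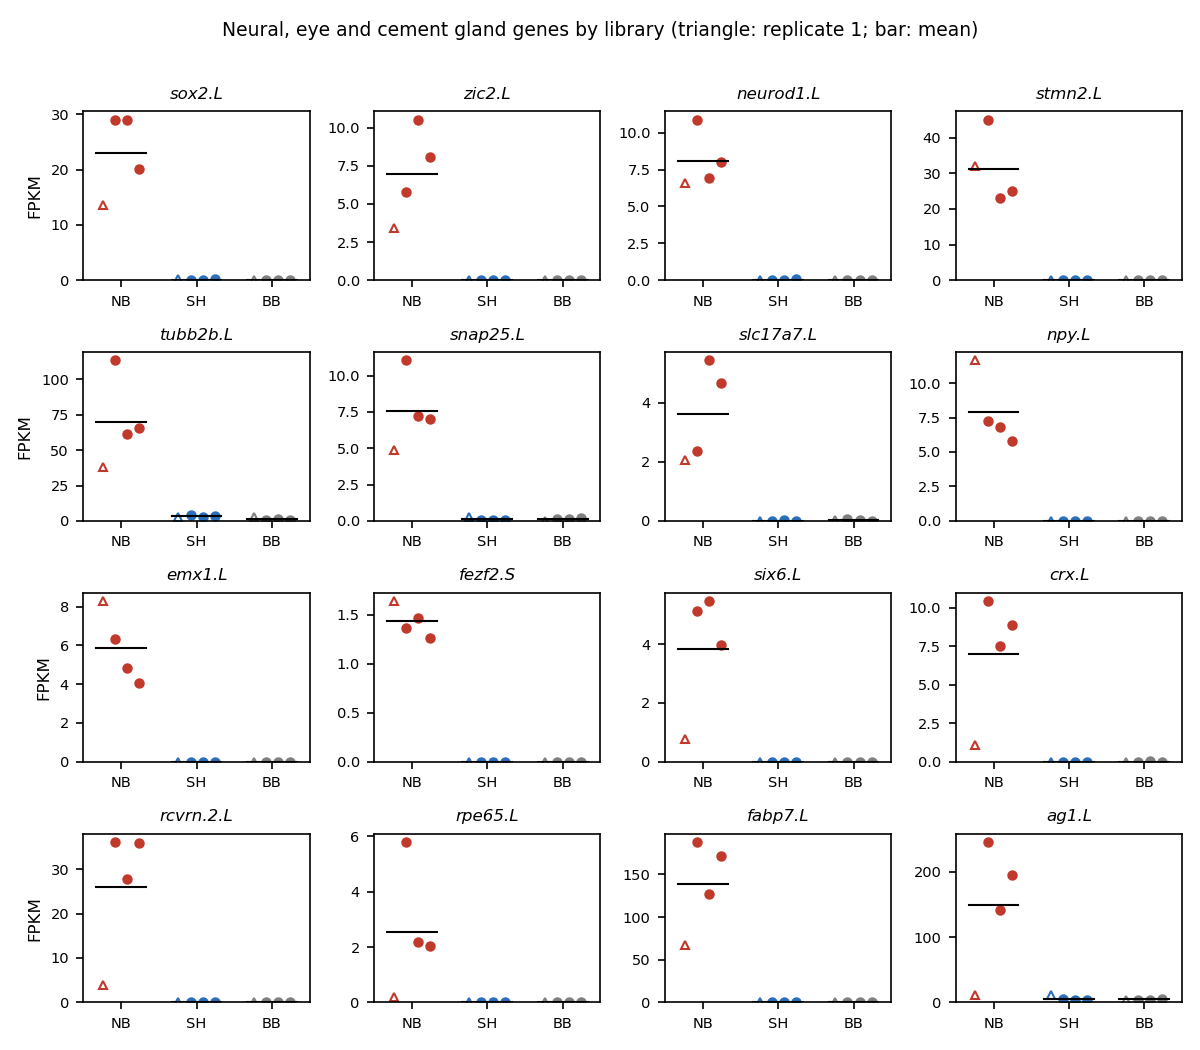
FPKM (vertical axes, linear and starting at 0, a scale of its own for each gene) of 16 neural, eye and cement gland genes in biobots (BB), neurobots (NB) and sham neurobots (SH). Points are libraries, the triangle is replicate 1 and the bar is the mean of 4 libraries. In stmn2.L, npy.L and emx1.L NB1 lies among or above the other neurobots, while in crx.L, rcvrn.2.L, rpe65.L and ag1.L it lies near the shams.

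Genes of the anterior brain were higher in most members. Of 50 members in the files, 35 were tested, 26 of them higher and 1 lower, with a median of 4.79, or 4.41 with genes at the floor set to their bounds. The dorsal telencephalic homeobox gene emx1.L measured 8.29, 6.31, 4.84 and 4.05 FPKM in NB1 to NB4 and 0 in all 4 shams. All neurobots, with NB1 the highest, were above the shams (at least 93.1-fold higher, adjusted p = 4.11e-05). The S copy of emx1 behaved differently, with 0.883, 0.827, 0.711 and 0.927 FPKM in NB1 to NB4 and 0.715, 1.98, 1.76 and 1.24 FPKM in SH1 to SH4 and no call (log2 fold change -0.80 ± 0.35). This copy was called lower without SH1 and with the share of counts on genes under 1 kb as a covariate. The zinc-finger factor fezf2.S, needed for forebrain patterning, was near the same level in all neurobots, with 1.64, 1.36, 1.47 and 1.26 FPKM in NB1 to NB4 and 0 in all 4 shams (at least 29.3-fold higher, adjusted p = 7.43e-05). The only forebrain gene called lower was dlx2.S, a homeobox gene of the ventral telencephalon that is also used in placodes and crest, with 13.5, 3.46, 3.35 and 4.92 FPKM in NB1 to NB4 and 22.6, 20.8, 17.1 and 20.6 FPKM in SH1 to SH4. NB1 was nearest to the shams (log2 fold change -1.72 ± 0.42, adjusted p = 0.0113), and the biobots, between 5.25 and 11.5 FPKM, lay within the range of the neurobots. Of 26 midbrain and isthmus factors in the files, 13 were tested, 10 of them higher and 0 lower. Their median was 3.93, or 3.75 with genes at the floor set to their bounds. Of the 10, 6 were at the floor in shams and entered the test only through the neurobots. The isthmic signal fgf8.S measured 2.73, 11.2, 9.54 and 6.48 FPKM in NB1 to NB4 and 0.0254, 0, 0.0143 and 0 FPKM in SH1 to SH4 (at least 188-fold higher, adjusted p = 2.25e-05). The engrailed and Wnt1 genes of the midbrain-hindbrain boundary were left out by the filter, NB1 being low, with 7, 88, 87 and 65 counts in NB1 to NB4 and 1, 0, 0 and 4 in SH1 to SH4 for wnt1.S and 5, 61, 47 and 33 counts in NB1 to NB4 and 0, 0, 3 and 0 in SH1 to SH4 for en2.S.

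Hindbrain and spinal cord factors went both ways. Of 46 members in the files, 20 were tested, 9 of them higher and 5 lower, with a median of 0.09, and the lower genes numbered 3 without NB2, NB3 or SH1. The dorsal factors pax7.L (0.333, 0.742, 1.24 and 0.747 FPKM in NB1 to NB4 and 0.038, 0.0246, 0.0215 and 0 FPKM in SH1 to SH4) and pax3.L (0.302, 0.655, 0.67 and 0.588 FPKM in NB1 to NB4 and 0.0342, 0, 0.0193 and 0.00835 FPKM in SH1 to SH4) were higher in every neurobot (log2 fold change 5.1 ± 0.68, adjusted p = 0.000398 and log2 fold change 5.05 ± 0.66, adjusted p = 0.000351). The hindbrain segmentation gene mafb.S measured 0.941, 0.314, 0.59 and 0.749 FPKM in NB1 to NB4 and 6.97, 4.71, 5.08 and 5.69 FPKM in SH1 to SH4. Every neurobot was under 1 FPKM and every sham above 4 FPKM (log2 fold change -3.15 ± 0.32, adjusted p = 9.11e-05). The biobots, between 1.19 and 2.57 FPKM, lay between them. The homeobox gene evx1.S, of posterior spinal interneurons, measured 0.0602, 0.0221, 0 and 0 FPKM in NB1 to NB4 and 1.66, 0.262, 0.19 and 0.209 FPKM in SH1 to SH4. SH1 was far above the other shams and the neurobots were near 0 (log2 fold change -4.81 ± 1.11, adjusted p = 0.00856). The rhombomere gene egr2.L was not called (-1.33 ± 0.59). Of 56 Hox genes in the files, which pattern the trunk and tail, 6 were tested, 0 were higher and 4 were lower. The member with the largest fall, hoxa3.S, measured 0.157, 0.0617, 0.0831 and 0.151 FPKM in NB1 to NB4 and 1.06, 0.725, 0.898 and 0.642 FPKM in SH1 to SH4. The neurobots lay below the shams (log2 fold change -2.90 ± 0.38, adjusted p = 0.000391), and the biobots, between 0.533 and 0.946 FPKM, lay with the shams. The posterior Hox gene hoxa9.L was not tested, with 31, 0, 0 and 0 counts in NB1 to NB4 and 0 in all 4 shams. The 4 lower Hox genes became 2 without NB3, SH1 or SH3 and 5 without NB1.

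Eye field factors were higher in most tested members. Of 33 members in the files, 25 were tested, 17 of them higher and 2 lower, with a median of 3.93. Their summed level was 49.8 FPKM in NB1, 114.4 to 139.7 FPKM in the other neurobots and 25.5 to 41.0 FPKM in the shams. The eye field gene six6.L measured 0.774, 5.13, 5.46 and 3.97 FPKM in NB1 to NB4 and 0 in all 4 shams. The paired-box gene pax6.S, required for eye and forebrain, measured 1.82, 3.32, 6.21 and 5.02 FPKM in NB1 to NB4 and 0 in all 4 shams. Neither had a count in a sham (at least 64.3-fold higher, adjusted p = 0.00062, and at least 134-fold higher, adjusted p = 0.000107). The retinal homeobox gene rax.S measured 0.422, 4.91, 5.03 and 5.15 FPKM in NB1 to NB4 and 0.0381, 0, 0 and 0 FPKM in SH1 to SH4 (at least 97.2-fold higher, adjusted p = 0.000324), and rax.L was left out by the filter with 7, 188, 217 and 180 counts in NB1 to NB4 and 0 in all 4 shams. The T-box gene tbx3, which is also an epidermal gene, was the exception, with 5.3, 0.973, 2.75 and 3.6 FPKM in NB1 to NB4 and 18.2, 10.9, 11.5 and 12.6 FPKM in SH1 to SH4 for tbx3.L. Its neurobots all lay below the shams (log2 fold change -2.11 ± 0.43, adjusted p = 0.00432), as they did for tbx3.S (-1.89 ± 0.37). The lower genes of this list numbered 2, and 4 without NB1.

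Photoreceptor genes were higher in 30 of 47 tested genes and lower in 2, with a median of 4.74. Of the 30, 17 had at most 3 counts in every sham and entered the test only through the neurobots. Over the genes called higher, the level in NB1 was at a median of 0.123 of the mean of the other neurobots. The homeobox gene crx.L, which drives photoreceptor differentiation, lies on chromosome 8L, 70907385 to 70916939 and measured 1.1, 10.4, 7.5 and 8.86 FPKM in NB1 to NB4 and 0 in all 4 shams. Recoverin, rcvrn.2.L, a calcium-binding protein of phototransduction, measured 4.00, 36.1, 27.8 and 35.9 FPKM in NB1 to NB4 and 0 in all 4 shams. Rod opsin, rho.L, measured 0.322, 7.41, 3.00 and 3.46 FPKM in NB1 to NB4 and 0 in all 4 shams. For all of them the shams had no count, NB1 was low and the other neurobots were high (at least 182-fold higher, adjusted p = 0.00056, for rcvrn.2.L at least 237-fold higher, adjusted p = 0.00052, and for rho.L at least 63.7-fold higher, adjusted p = 0.00227). The cone phosphodiesterase subunit pde6h.L had the same pattern, with 1.04, 11.1, 8.71 and 8.9 FPKM in NB1 to NB4 and 0 in all 4 shams (at least 199.7-fold higher, adjusted p = 0.000628). Rod transducin, gnat1.L, was left out by the filter, with 8, 283, 162 and 234 counts in NB1 to NB4 and 0, 3, 0 and 2 in SH1 to SH4. The 2 genes called lower were the homeologs of the G protein subunit gnb3, which cones use. The L copy, gnb3.L, measured 117, 89.1, 105 and 106 FPKM in NB1 to NB4 and 216, 236, 254 and 209 FPKM in SH1 to SH4 (log2 fold change -1.17 ± 0.18, adjusted p = 0.000935). The biobots, which carry no implant, were between 212 and 363 FPKM.

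In the retinal pigment epithelium and pigment cell list, 14 of 20 tested genes were higher and 1 was lower (median 3.73). The visual cycle isomerase rpe65.L measured 0.21, 5.81, 2.17 and 2.06 FPKM in NB1 to NB4 and 0, 0, 0.0147 and 0 FPKM in SH1 to SH4. Retinaldehyde-binding protein, rlbp1.L, measured 6.82, 38.9, 22.7 and 23.6 FPKM in NB1 to NB4 and 0.0481, 0, 0.0272 and 0 FPKM in SH1 to SH4. The melanosome protein pmel.L measured 5.46, 20.3, 11.9 and 11.8 FPKM in NB1 to NB4 and 0.158, 0.0922, 0.333 and 0.134 FPKM in SH1 to SH4. NB2 was the highest and NB1 the lowest neurobot for each (at least 62-fold higher, adjusted p = 0.000552, for rlbp1.L at least 304-fold higher, adjusted p = 2.56e-05, and for pmel.L log2 fold change 6.07 ± 0.51, adjusted p = 3.41e-05). Retinal interneuron and ganglion cell genes were higher in 16 of 27 and lower in 1, with a median of 2.35. The bipolar cell homeobox gene vsx1.S measured 0.43, 2.48, 3.16 and 3.02 FPKM in NB1 to NB4 and 0 in all 4 shams (at least 54.2-fold higher, adjusted p = 0.00074). Lens genes did not share this direction, with 3 of 14 higher, 5 lower and a median of -0.17. The lens factor foxe3.S was higher (1.14, 0.994, 2.15 and 1.66 FPKM in NB1 to NB4 and 0.0184, 0.196, 0 and 0.0899 FPKM in SH1 to SH4, log2 fold change 4.18 ± 0.74, adjusted p = 0.00204). The beta-crystallin crybb2.L was lower, with 0.409, 0.225, 0.114 and 0.108 FPKM in NB1 to NB4 and 1.53, 0.63, 0.689 and 0.672 FPKM in SH1 to SH4 (log2 fold change -2.07 ± 0.56, adjusted p = 0.0177), but not without NB3, NB4 or SH1. The lens membrane channel mip.S was not called (-0.20 ± 0.42), and the alpha-crystallin cryaa.S had 0, 3, 1 and 0 counts in NB1 to NB4 and 1, 4, 6 and 5 in SH1 to SH4. The lower lens genes numbered 3 without NB2 or SH4 and 2 without NB3, NB4 or SH1.

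Glial and radial glial genes were higher in 11 of 21 tested genes and lower in 1 (median 1.03). The brain fatty acid-binding protein fabp7.L, a radial glial gene, measured 66.7, 188, 127 and 171 FPKM in NB1 to NB4 and 0.0892, 0.0433, 0.252 and 0.218 FPKM in SH1 to SH4. The glutamate transporter slc1a3.S measured 12.9, 53.5, 40.9 and 37.2 FPKM in NB1 to NB4 and 0.396, 0.377, 0.419 and 0.315 FPKM in SH1 to SH4. Both were far above the shams in every neurobot, NB1 the lowest (fabp7.L, log2 fold change 9.78 ± 0.52, adjusted p = 4.73e-06, and slc1a3.S, log2 fold change 6.54 ± 0.44, adjusted p = 1.26e-05). Activity-regulated genes went both ways, 5 of 26 higher (19.2%) and 6 lower (23.1%), with a median of -0.21. Over all genes tested 19.6% were higher and 13.2% lower, so the share higher was near that background. The synaptic immediate early gene arc.L measured 0.454, 1.04, 0.634 and 0.728 FPKM in NB1 to NB4 and 0 in all 4 shams (at least 30.5-fold higher, adjusted p = 0.000143). The growth factor bdnf.S was also higher (3.09 ± 0.48). The immediate early gene nr4a1.S was lower, with 1.29, 0.482, 0.714 and 0.648 FPKM in NB1 to NB4 and 4.21, 2.49, 1.74 and 2.14 FPKM in SH1 to SH4 (log2 fold change -1.79 ± 0.37, adjusted p = 0.00508). The general immediate early genes egr1.S (-1.07 ± 0.28) and fos.S (-0.92 ± 0.27) were called lower as well, but egr1.S not without SH4 and fos.S not without NB2, NB3, NB4, SH1, SH3 or SH4. The call of fos.S was also lost with the share of counts on genes under 1 kb as a covariate. The activity-regulated list had 3 lower genes without NB2, NB3, NB4 or SH3 and 2 without SH4.

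Of the neural crest specifiers, 10 of 25 were higher and 2 lower (median 0.56), and of the placode factors 11 of 29 were higher and 3 lower (median 0.31). The crest gene snai2.S measured 6.34, 8.07, 5.18 and 4.19 FPKM in NB1 to NB4 and 0.852, 1.39, 1.31 and 1.27 FPKM in SH1 to SH4. It was higher in every neurobot (log2 fold change 2.26 ± 0.26, adjusted p = 0.000187), whereas snai2.L was not called (0.57 ± 0.27). The endothelin receptor ednrb.L of melanocyte precursors had no count in a sham and measured 0.282, 2.91, 3.55 and 2.86 FPKM in NB1 to NB4 and 0 in all 4 shams (at least 55.2-fold higher, adjusted p = 0.00138). The crest factor sox10 was left out by the filter, with 61, 6, 2 and 13 counts in NB1 to NB4 and 0, 0, 1 and 1 in SH1 to SH4 for sox10.S. The lower genes of the crest list numbered 4 and those of the placode list 6 without NB1. Cement gland genes, which belong to the mucus-secreting organ in front of the neural plate, were higher in 8 of 9 tested genes and lower in 0, with a median of 3.93. Its marker ag1.L measured 11.1, 246, 142 and 196 FPKM in NB1 to NB4 and 10.6, 5.2, 3.61 and 3.04 FPKM in SH1 to SH4. NB1 was close to SH1 while NB2, NB3 and NB4 were far above (log2 fold change 4.69 ± 0.82, adjusted p = 0.00195). In ag1.S the value of NB1, 9.55 FPKM, lay below that of SH1, 10.3 FPKM, and the gene was called all the same (log2 fold change 4.32 ± 0.78, adjusted p = 0.00234). The secretory-pathway gene agr2.L measured 281, 636, 468 and 578 FPKM in NB1 to NB4 and 107, 255, 157 and 140.4 FPKM in SH1 to SH4 and did not overlap (log2 fold change 1.53 ± 0.32, adjusted p = 0.00547).

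Epidermal factors were lower in 20 of 66 tested genes and higher in 9, with a median of -0.35, against backgrounds of 13.2% and 19.6%. Grainyhead-like 3, grhl3.L, a regulator of the epidermal barrier, lies on chromosome 2L, 57307243 to 57323355 and measured 23.6, 29.2, 24.1 and 22.1 FPKM in NB1 to NB4 and 59.7, 60.5, 60.2 and 63.9 FPKM in SH1 to SH4. The libraries within each group were close to each other and the groups far apart (log2 fold change -1.34 ± 0.15, adjusted p = 0.000163). The biobots were at the level of the neurobots, between 25.6 and 30.2 FPKM. The same held in part for the AP-2 factor tfap2c.L, with 34.3, 9.2, 13.7 and 15.3 FPKM in NB1 to NB4 and 53.1, 37.3, 47.9 and 45.5 FPKM in SH1 to SH4 (log2 fold change -1.38 ± 0.36, adjusted p = 0.0156) and biobots between 18.7 and 28.8 FPKM. The Krüppel-like factor klf17.1.S measured 1.22, 0.991, 0.929 and 0.869 FPKM in NB1 to NB4 and 4.05, 3.62, 3.41 and 2.52 FPKM in SH1 to SH4 (log2 fold change -1.80 ± 0.23, adjusted p = 0.000338). The basal cell factor tp63.L rose, with 16.8, 20.3, 20.2 and 18.6 FPKM in NB1 to NB4 and 12.3, 7.86, 9.11 and 10.06 FPKM in SH1 to SH4. The rise was under 2-fold (log2 fold change 0.91 ± 0.18, adjusted p = 0.00321), and tp63.S was not called (0.27 ± 0.31). Without NB1, tp63.S was called higher. Keratins also went both ways, 10 of 31 higher and 4 lower, with a median of 0.24. The abundant epidermal keratin krt12.4.S measured 12365, 8550.3, 4668 and 5319.7 FPKM in NB1 to NB4 and 6872, 10002, 8001 and 8141 FPKM in SH1 to SH4. NB1 was the highest of the 8 libraries and NB3 the lowest, and the groups overlapped (log2 fold change -0.14 ± 0.35). By contrast krt19.S, a type I keratin of simple epithelia, measured 106, 500.4, 291 and 270.2 FPKM in NB1 to NB4 and 2.55, 1.52, 1.66 and 1.86 FPKM in SH1 to SH4. Every neurobot exceeded every sham by a wide margin (log2 fold change 7.22 ± 0.51, adjusted p = 1.48e-05), with biobots between 1.19 and 2.56 FPKM. Another keratin of simple epithelia, krt18.1.L, measured 105, 98.2, 59.7 and 67.4 FPKM in NB1 to NB4 and 4.76, 9.3, 8.91 and 9.23 FPKM in SH1 to SH4 (log2 fold change 3.32 ± 0.28, adjusted p = 3.68e-05). The keratin krt20.L fell, from between 0.465 and 0.799 FPKM in shams to between 0.0188 and 0.0855 FPKM in neurobots (log2 fold change -3.90 ± 0.55, adjusted p = 0.000514). The lower keratins numbered 7 without NB1.

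Genes of multiciliated cells were lower in part. Of 103 members in the files, 102 were tested, 2 of them higher and 22 lower, with a median of -0.51. The dynein intermediate chain dnai1.L of the outer arm measured 27.8, 13.5, 22.8 and 19.6 FPKM in NB1 to NB4 and 39.8, 26.6, 37.1 and 34 FPKM in SH1 to SH4. NB1 lay above SH2 and the other neurobots below all shams (log2 fold change -0.75 ± 0.23, adjusted p = 0.0322). This call was lost without NB2, NB3, NB4, SH1, SH3 or SH4, or with the share of counts on genes under 1 kb as a covariate. The count of lower axoneme genes moved with single libraries, to 56 without NB1 and to 14, 12, 13, 9 and 8 without NB2, NB3, SH1, SH3 and SH4. The 2 axoneme list members called higher were the homeologs of the alpha-tubulin tuba1b, which is not specific to cilia. The S copy measured 60.3, 77, 46.3 and 47.4 FPKM in NB1 to NB4 and 0.969, 0.314, 0.142 and 0.281 FPKM in SH1 to SH4 (log2 fold change 7.02 ± 0.52, adjusted p = 1.92e-05). Regulators of the multiciliated fate were higher in 6 of 37 (16.2%) and lower in 8 (21.6%), with a median of -0.09. Over all genes tested 19.6% were higher and 13.2% lower. The master regulator of motile cilia foxj1.S measured 7.02, 2.91, 7.18 and 7.15 FPKM in NB1 to NB4 and 22.9, 11.7, 20.6 and 18.13 FPKM in SH1 to SH4. Its neurobots lay below all shams, NB2 and SH2 the lowest of their groups (log2 fold change -1.63 ± 0.31, adjusted p = 0.00331). The L copy, foxj1.L, was lower as well (-1.37). That call was lost without SH1, SH3 or SH4, or with the share of counts on genes under 1 kb as a covariate. The related foxj1.2.L was lower (-1.21), a call lost in 10 of 19 alternatives, and foxj1.2.S was not called (-0.70). The proto-oncogene myb.L, which acts early in multiciliated cells, measured 1.13, 0.195, 0.704 and 0.912 FPKM in NB1 to NB4 and 3.21, 2.31, 3.12 and 2.59 FPKM in SH1 to SH4 (log2 fold change -1.97 ± 0.43, adjusted p = 0.00616). Among the regulators called higher, rfx4.L, a relative of the cilia factors that is expressed in the neural tube, measured 0.442, 1.35, 1.26 and 1.02 FPKM in NB1 to NB4 and 0.00624, 0, 0 and 0 FPKM in SH1 to SH4 (at least 51.9-fold higher, adjusted p = 3.33e-05). The defining gene ccno.L was also higher (2.12), and ccno.S was not called (0.97). The call of ccno.L was lost without SH3 or SH4, without NB1, NB2 and SH2 and with all 12 libraries. It was also lost with the covariate for short genes and in limma at a pseudocount of 1. The defining gene mcidas.S was left out by the filter, with 24, 20, 9 and 10 counts in NB1 to NB4 and 3, 8, 4 and 3 in SH1 to SH4. The lower regulators numbered 5 without NB3 and 4 without SH1, SH3 or SH4, and the higher ones 3 without NB3 or SH2 and 2 without SH3 or SH4.

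Ionocyte genes were lower in 19 of 42 tested genes and higher in 4, with a median of -1.97. The forkhead gene foxi1.S, the regulator of ionocytes, measured 13.4, 0.735, 0.945 and 2.16 FPKM in NB1 to NB4 and 12.6, 23.6, 24.2 and 28.8 FPKM in SH1 to SH4. NB1 lay just above SH1, the lowest sham, while NB2, NB3 and NB4 were far below all shams (log2 fold change -2.41 ± 0.82, adjusted p = 0.0448). The call was lost without NB2, NB3, NB4, SH1, SH2, SH3 or SH4. With all 8 libraries it was lost with no filter on low counts and with the CPM filter. Its homeolog foxi1.L measured 44.4, 2.23, 2.1 and 4.28 FPKM in NB1 to NB4 and 34.3, 52.6, 60.3 and 62 FPKM in SH1 to SH4. With all 8 libraries this copy was not called by edgeR (log2 fold change -2.02 ± 0.90, adjusted p = 0.109) or DESeq2 but was called with the replicate block, the covariate for short genes or limma, and without NB1 the log2 fold change of foxi1.L was -4.23 (adjusted p = 2.3e-05). The proton pump subunit atp6v1b1.L measured 238, 10.6, 14.8 and 25.3 FPKM in NB1 to NB4 and 239, 337, 303 and 384 FPKM in SH1 to SH4. It lay just under the lowest sham in NB1 and at a small share of that level in NB2, NB3 and NB4, and was not called (adjusted p = 0.0855), although the replicate block, the covariate, limma and the fit with all 12 libraries called it. Without NB1 the log2 fold change of atp6v1b1.L was -4.27 (adjusted p = 2.86e-05). The factor ubp1.L measured 6.9, 0.207, 0.853 and 0.975 FPKM in NB1 to NB4 and 10.6, 13.1, 18 and 20.9 FPKM in SH1 to SH4 (log2 fold change -2.85 ± 0.83, adjusted p = 0.0247). Without NB3, NB4, SH3 or SH4, or with no filter on low counts, ubp1.L was not called. The pump subunit atp6v1c2.S measured 0.459, 0.0421, 0.404 and 0.303 FPKM in NB1 to NB4 and 1.95, 1.25, 2.32 and 3.04 FPKM in SH1 to SH4 (log2 fold change -2.85 ± 0.57, adjusted p = 0.00408). Of the members called higher, atp1b2.S, a sodium pump subunit also used in neural cells, measured 1.97, 7.47, 8.08 and 8.7 FPKM in NB1 to NB4 and 0.145, 0, 0 and 0 FPKM in SH1 to SH4 (log2 fold change 7.35 ± 0.90, adjusted p = 0.000253). Without NB1 there were 32 lower ionocyte genes, and without NB2, NB3, NB4, SH3 or SH4 there were 12, 12, 10, 11 and 7.

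Goblet and small secretory cells were read from few genes. Of 9 tested goblet and mucus genes 3 were higher (5 without NB1) and 2 lower (median 0.71). The secreted lectin itln1.L, one of the most abundant transcripts of the bots, measured 10033, 7147, 4047 and 4127 FPKM in NB1 to NB4 and 7522, 11515, 9029 and 9020.3 FPKM in SH1 to SH4. The groups overlapped through NB1 and SH1, and the gene was not called (-0.59 ± 0.35, adjusted p = 0.221). It was called lower with library size alone, with the covariate for short genes and without NB1, where the log2 fold change of itln1.L was -0.91 (adjusted p = 0.042). The membrane mucin muc1.S measured 1.25, 0.368, 0.692 and 1.04 FPKM in NB1 to NB4 and 5.75, 5.83, 5.57 and 8.45 FPKM in SH1 to SH4. It was lower in every neurobot (log2 fold change -2.97 ± 0.35, adjusted p = 0.000215). Neither itln1.L nor muc1.S stands for the list, in which more genes were higher than lower. The defining gene otog.L was left out by the filter and had more counts in the neurobots. It had 23, 10, 40 and 21 counts in NB1 to NB4 and 3, 0, 5 and 3 in SH1 to SH4. Of the small secretory cell genes, 5 of 17 were higher and 6 lower (median -0.50), with 3 lower genes without NB2, NB3, SH1, SH3 or SH4. Their forkhead regulator foxa1.L measured 0.875, 0.117, 0.355 and 0.529 FPKM in NB1 to NB4 and 4.2, 4.14, 5.66 and 5.12 FPKM in SH1 to SH4. Every neurobot was under 1 FPKM and every sham above 4 FPKM (log2 fold change -3.38 ± 0.48, adjusted p = 0.000552), and foxa1.S was lower as well (-2.17 ± 0.23). The list members called higher included peptide-processing and secretory granule genes that neurons also use, such as pcsk2.L with 1.1, 1.58, 1.17 and 2.00 FPKM in NB1 to NB4 and 0.00813, 0, 0 and 0.0318 FPKM in SH1 to SH4 (log2 fold change 6.98 ± 0.67, adjusted p = 6.7e-05) and chgb.L with 4.19, 16.1, 11.2 and 10.4 FPKM in NB1 to NB4 and 1.82, 0.48, 0.181 and 0.375 FPKM in SH1 to SH4 (log2 fold change 3.83 ± 0.67, adjusted p = 0.00188).

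**Figure D3:**
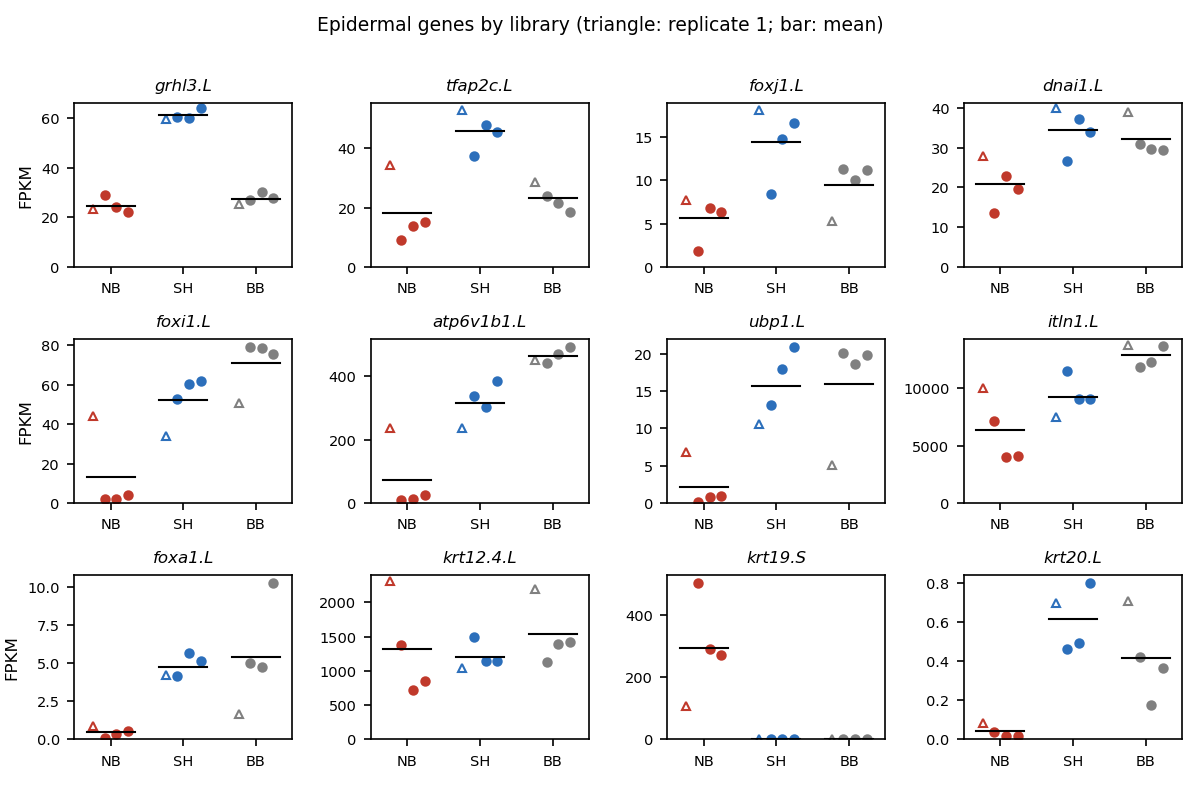
FPKM (vertical axes, linear and starting at 0, a scale of its own for each gene) of 12 epidermal, ciliary, ionocyte, secretory and keratin genes in biobots (BB), neurobots (NB) and sham neurobots (SH). Points are libraries, the triangle is replicate 1 and the bar is the mean of 4 libraries. For foxi1.L, atp6v1b1.L and ubp1.L, NB1 lies well above NB2, NB3 and NB4, and for grhl3.L the biobots lie with the neurobots.

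Markers of mesodermal and endodermal tissues were examined in the same way. Muscle genes were higher in 8 of 19 tested genes and lower in 2 (median 0.17), but the defining genes myod1, actc1 and acta1 were not tested, at 14 counts or fewer in every neurobot. Notochord and somite factors were represented by 6 tested genes of 35, with 5 higher. The homeobox gene not.L, of the notochord and also of the pineal and floor plate region, measured 1.22, 2.1, 2.17 and 2.19 FPKM in NB1 to NB4 and 0, 0, 0.0159 and 0 FPKM in SH1 to SH4 (at least 43.5-fold higher, adjusted p = 2.21e-05). The notochord factor tbxt.S was not called, with 0.127, 0.105, 0.141 and 0.122 FPKM in NB1 to NB4 and 0.213, 0.126, 0.133 and 0.381 FPKM in SH1 to SH4 (log2 fold change -0.82 ± 0.47). Of 39 endoderm genes in the files 3 were tested and 0 were called by edgeR (0 at an unadjusted p under 0.05, 0 by DESeq2, and 1 lower without NB1 or by limma at a pseudocount of 0.1), and the endodermal factor sox17a.S had 0, 49, 33 and 26 counts in NB1 to NB4 and 0 in all 4 shams. Blood and endothelial genes were higher in 4 of 13 tested and lower in 0, where lmo2.L measured 1.19, 1.751, 1.97 and 0.907 FPKM in NB1 to NB4 and 0, 0.0596, 0 and 0.0401 FPKM in SH1 to SH4 (at least 22.6-fold higher, adjusted p = 0.000288), and the higher genes numbered 2 without SH3 or SH4. Collagens rose in 24 of 43 tested genes and fell in 0, with a median of 1.12. The fibrillar collagen col1a1.L measured 28.9, 14, 43.6 and 40.4 FPKM in NB1 to NB4 and 2.88, 0.528, 1.31 and 1.36 FPKM in SH1 to SH4. The cartilage and notochord collagen col2a1.L measured 7.77, 5.25, 11 and 10.6 FPKM in NB1 to NB4 and 1.63, 0.643, 1.02 and 1.09 FPKM in SH1 to SH4. Neither overlapped between groups (col1a1.L, log2 fold change 4.35 ± 0.54, adjusted p = 0.000286, and col2a1.L, log2 fold change 2.95 ± 0.33, adjusted p = 0.00015).

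Lists of cell cycle, ribosomal, metabolic and stress genes had median log2 fold changes between -0.21 and 0.72. The share called higher was 29.6% for cell cycle genes and 29.6% for lipoprotein and yolk metabolism genes, above the 19.6% of all genes tested. Cell cycle genes were higher in 34 of 115 tested genes and lower in 0, with a median of 0.32, and 21, 18 and 17 were higher without SH1, SH3 and SH4. The replication clamp pcna.L measured 74.9, 129, 68.9 and 66 FPKM in NB1 to NB4 and 29.2, 42, 38.1 and 36.7 FPKM in SH1 to SH4. The groups did not overlap (log2 fold change 1.17 ± 0.23, adjusted p = 0.00393). The proliferation marker mki67 was called in neither copy (0.25 ± 0.25 in mki67.L and -0.57 ± 0.24 in mki67.S). With the share of counts on genes under 1 kb as a covariate, mki67.L was called higher. Cytosolic ribosomal protein genes had a median of 0.72, and 11 of 137 were called higher, none lower. Their count moved with single libraries, to 82 higher without SH2, 19 without NB3, 4 without NB1 and 2 without any of NB2, SH1, SH3 or SH4. NB1, NB2 and SH2 had the most counts on genes under 1 kb. With that share as a covariate 97 were higher, and what part it has in the counts was not tested further. Oxidative phosphorylation genes had 6 lower and 3 higher of 138 (median -0.21). Without NB1, 34 were lower, and without NB2, NB3, NB4 or SH3 only 1, without SH2 or SH4 3. The covariate for short genes gave 96 lower. Heat shock and chaperone genes were higher in 9 of 46 and lower in 2 (median 0.35), with 4 higher without NB2, SH1, SH3 or SH4 and 4 lower without NB1. The asparagine synthetase asns.L, a gene of the amino acid stress response, measured 7.99, 34.9, 18.5 and 21.9 FPKM in NB1 to NB4 and 0.223, 0.912, 0.126 and 0.156 FPKM in SH1 to SH4 (log2 fold change 5.81 ± 0.69, adjusted p = 0.000201). The Hsp70 family gene hspa1l.S was not called (0.08 ± 0.34). Of the lipoprotein and yolk metabolism genes 8 of 27 were higher and 0 lower. The apolipoprotein apoc1.L measured 989.9, 3533, 1629.8 and 1377 FPKM in NB1 to NB4 and 50.2, 84.4, 73.5 and 77.4 FPKM in SH1 to SH4. It was among the 8 largest gains in FPKM (log2 fold change 4.68 ± 0.43, adjusted p = 5.48e-05), and apoa1.L, left out by the filter, had 7, 375, 176 and 212 counts in NB1 to NB4 and 0 in all 4 shams.

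**Figure D4:**
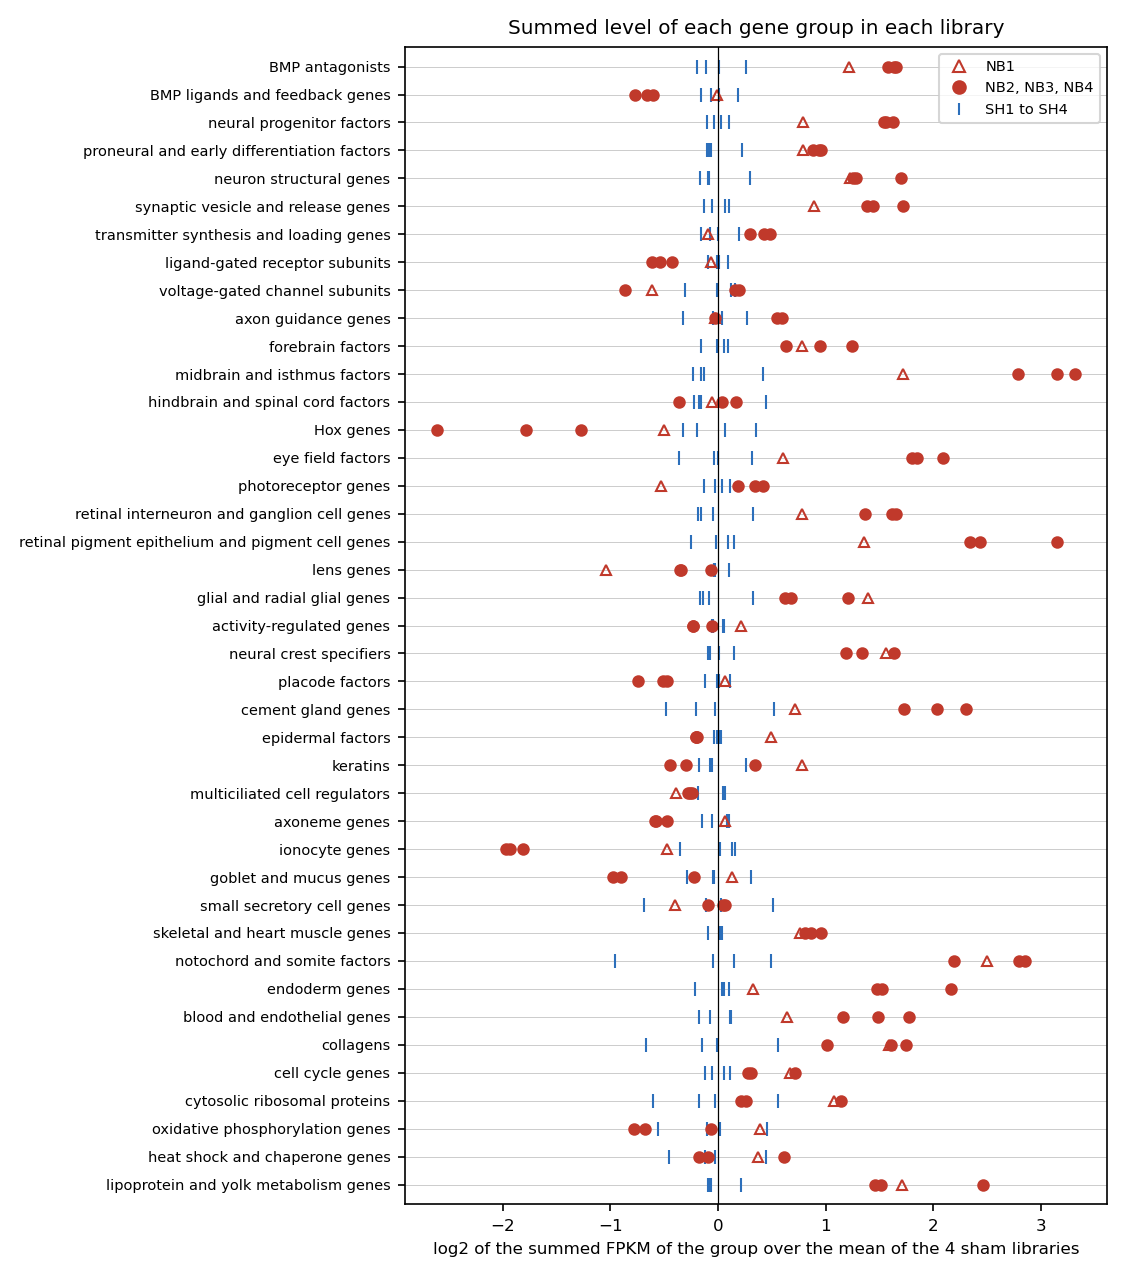
Summed FPKM of each gene group in each library, as log2 of its ratio to the mean of the 4 sham libraries (horizontal axis). Red circles are NB2, NB3 and NB4, the open triangle is NB1 and blue ticks are SH1 to SH4. For ionocyte genes NB2 to NB4 summed to 759.3 to 849.3 FPKM and NB1 to 2141 FPKM, against 2328 to 3320 FPKM in shams.

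The genes at the extremes were picked by fold. Among genes at a mean of 1 FPKM or more in the higher group, the 10 with the largest fitted rises included rcvrn.2.L, zic2.L, dmrta2.L, pde6h.L, crx.L, crx.S, slc39a12.S, cldn5.L and rcvrn.2.S. All 10 were at the floor in shams, where the fitted value depends on the prior count of the fit and the order is not one of measured size. With such genes at their bounds, the order was led by cldn5.L, igfbpl1.L, fabp7.L, stmn2.L and gpm6a.L, of which igfbpl1.L and gpm6a.L were picked after the values were seen and had log2 fold changes of 9.97 ± 1.05 and 9.31 ± 0.68. The Dmrt factor dmrta2.L, needed for the dorsal telencephalon, measured 5.24, 6.85, 8.55 and 7.74 FPKM in NB1 to NB4 and 0 in all 4 shams. All neurobots were similar (at least 206-fold higher, adjusted p = 1.19e-05). The tight junction gene cldn5.L, of the blood-brain barrier and pigment epithelium, measured 5.06, 55.8, 50.8 and 40.3 FPKM in NB1 to NB4 and 0.0106, 0, 0.012 and 0.0104 FPKM in SH1 to SH4. NB1 was far below the other neurobots (at least 1140-fold higher, adjusted p = 3.61e-05). The 10 largest fitted falls were dgat2l6.L, mmp9.2.S, kcna4.S, pga4.L, cpt1b.L, osgin2.L, aifm2.L, nrdc.L, insrr.S and foxa1.L. The acyltransferase family gene dgat2l6.L measured 0, 0.0385, 0.0194 and 0.0369 FPKM in NB1 to NB4 and 0.900, 2.21, 0.221 and 0.977 FPKM in SH1 to SH4. No neurobot exceeded 3 counts, so the gene was at least 18.9-fold lower (adjusted p = 0.00109). The matrix metalloproteinase mmp9.2.S measured 0, 0.0695, 0.199 and 0.133 FPKM in NB1 to NB4 and 4.07, 3.87, 1.93 and 1.23 FPKM in SH1 to SH4 (log2 fold change -4.79 ± 0.72, adjusted p = 0.000795). The mitochondrial fatty acid importer cpt1b.L measured 0.529, 0.0505, 0.173 and 0.136 FPKM in NB1 to NB4 and 2.43, 2.28, 2.95 and 2.46 FPKM in SH1 to SH4 (log2 fold change -3.55 ± 0.56, adjusted p = 0.00101). In 8 of these 10 genes the highest biobot was at or above the lowest sham. Of the 8 largest absolute gains in mean FPKM, 3 were called (tmsb4x.L, apoc1.L and actb.L), and actb.L lost the call without NB2, SH1, SH3 or SH4, with the replicate block and in limma. The actin-binding peptide gene tmsb4x.L measured 4609, 3749.8, 1862 and 2093 FPKM in NB1 to NB4 and 829, 1947, 1141 and 1091 FPKM in SH1 to SH4. NB3 lay below SH2 (log2 fold change 1.26 ± 0.37, adjusted p = 0.0259), and the call was lost without NB2, SH1, SH3 or SH4 and in limma. Among the 8 largest losses only gstp1.L, a glutathione transferase, was called. It measured 555, 395, 298 and 247 FPKM in NB1 to NB4 and 832, 1505, 1351 and 1164 FPKM in SH1 to SH4 and did not overlap (log2 fold change -1.74 ± 0.30, adjusted p = 0.00172). The glycolytic genes gapdh.S (-1.19 ± 0.46, adjusted p = 0.0700) and ldhb.S (-1.07 ± 0.45, adjusted p = 0.0951) were not called, with NB1 inside the range of the shams. Both were called lower by DESeq2, with library size alone, with the covariate for short genes, with all 12 libraries and without NB1, where the log2 fold change of gapdh.S was -1.91 and the log2 fold change of ldhb.S was -1.73.

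Where both homeologs were called, they mostly went in the same direction, but pairs with a single copy called were more numerous. Of 6055 pairs with both copies tested, both were higher in 854 and both lower in 290, and in 61 the copies were called in opposite directions. In 1731 pairs a single copy was called, and in 1289 of these the other had the same sign. Across pairs the log2 fold changes of L and S copies had a Pearson r of 0.732, which is across genes and not across replicates, and reads of near-identical copies can be split between them. The median absolute difference was 0.386 and 117 pairs differed by more than 4 in fitted values. Shares of genes called were alike on the subgenomes, 19.2% higher and 14% lower of 14109 genes on L chromosomes and 20.3% and 12.2% of 10412 on S chromosomes. The growth factor gene angpt4 was among the clearest opposite pairs. Its L copy measured 16.9, 5.72, 6.93 and 7.09 FPKM in NB1 to NB4 and 30.0, 32.4, 41 and 29.9 FPKM in SH1 to SH4. The S copy measured 4.06, 18, 9.56 and 8.31 FPKM in NB1 to NB4 and 0.57, 0.877, 0.886 and 0.957 FPKM in SH1 to SH4. The L copy fell (log2 fold change -1.90 ± 0.33, adjusted p = 0.00186) and the S copy rose (log2 fold change 3.56 ± 0.42, adjusted p = 0.000198). In the transaminase agxt2 the S copy fell, -3.00 ± 0.93, and the L copy rose, 5.08 ± 0.67, in the serine protease tmprss13 these were -2.39 ± 0.54 and 3.56 ± 0.86, and in tpte2 the L copy fell (-1.97 ± 0.66) and the S copy rose (4.50 ± 1.04). Leaving out single libraries ended the calls of agxt2.S (without NB2, NB3, SH1, SH2 or SH3) and tpte2.L (without NB2, NB3, NB4, SH1, SH2, SH3 or SH4), and the replicate block ended those of agxt2.S, tpte2.S and tmprss13.L. The call of agxt2.S was also lost with library size alone and with all 12 libraries, and that of tpte2.L with no filter. The bone gene tmem119 fell in its S copy (-1.82 ± 0.39), and its L copy was at least 8.73-fold higher, adjusted p = 0.00137.

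**Figure D5:**
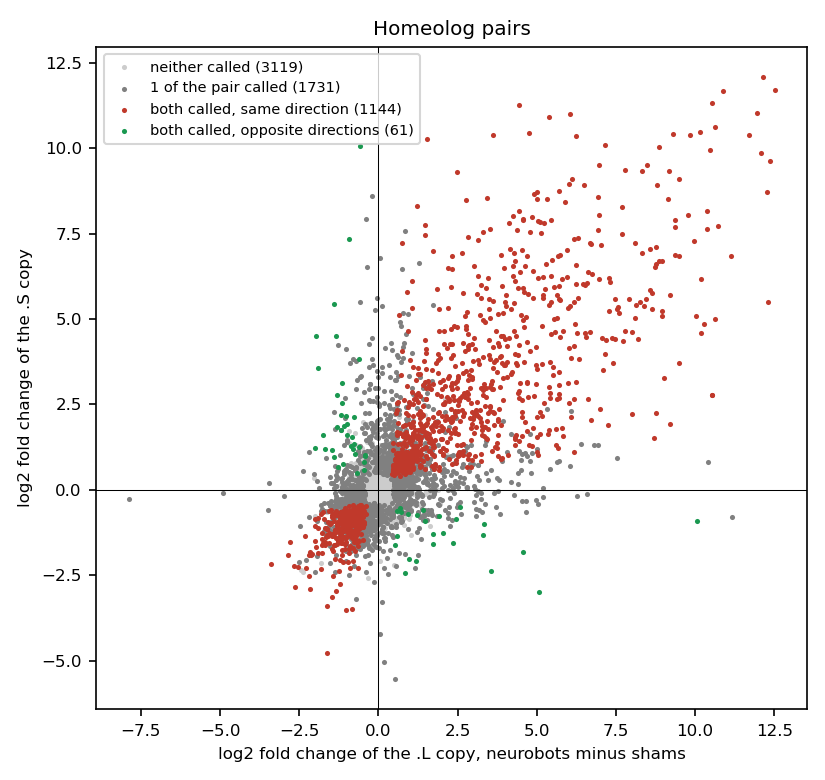
Log2 fold change (neurobots minus sham neurobots) of the L copy (horizontal axis) and the S copy (vertical axis) in 6055 homeolog pairs. Points are pairs, light grey where neither copy was called (3119), dark grey where 1 was (1731), red where both were called in the same direction (1144) and green where they were called in opposite directions (61).

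The filter left out 19936 genes, of which 12933 had a count. Because a gene silent in the shams had to reach the minimum in all 4 neurobots, 453 genes with 10 counts or more in each of NB2, NB3 and NB4 and at most 3 in every sham were not tested, and in 212 of them NB1 had 3 counts or fewer. Among the genes left out, 3 had 10 counts or more in every sham and at most 3 in every neurobot. A gene with such counts in all 4 shams usually passes the filter, so the 3 are no counterpart to the 453. Of the genes tested and called lower, 20 had at most 3 counts in every neurobot. With no filter, 1306 further genes were called higher and 264 lower. Defining markers without a row of their own (gfap, grm6, hsp90aa1.1, noto, pou4f2, scn8a, slc17a6 and tyr) were not analysed here.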

How the data were processed

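Poly(A) RNA of pooled bots was sequenced by the authors from low-input, non-directional libraries, so that overlapping and antisense genes are uncertain. Near-identical homeologs are uncertain as well, since their reads can be split between the copies. Reads were aligned to the X. laevis genome v10.1 with HISAT2 2.0.5 and counted with featureCounts 1.5.0-p3. The authors deposited raw counts, used here for all tests, and FPKM values scaled by DESeq2 1.20.0 size factors, used here for levels. Columns of their own comparisons (fold changes and p-values) were not used. Genes were kept by filterByExpr (minimum count 10, minimum total 15). The 8 libraries were scaled by TMM and fitted with edgeR 4.0.16 (robust quasi-likelihood, R 4.3.3), with Benjamini-Hochberg adjustment over all genes tested. Standard errors are the absolute log2 fold change over the root of F. In simulated counts with 22624 genes tested, 25% of 100 genes changed by 1 on the log2 scale and 93% of 100 changed by 2 were recovered. There were 11 calls of unchanged genes. The changed genes were drawn from well-counted genes and were far fewer than the calls made here. The cutoff after adjustment therefore differs, and these shares are not the recovery in the data. Alternatives used DESeq2 1.42.0, limma 3.58.1 on log2(FPKM + 1) or log2(FPKM + 0.1), other scalings and filters, a replicate block and the omission of each library. Named genes were the defining genes of each list, the largest called changes within each list, the 10 largest non-overlapping changes in each direction at a mean of 1 FPKM or more, the 8 largest differences in FPKM each way and up to 5 homeolog pairs called in opposite directions. The comparison, the lists and the named genes were chosen with earlier results of these data known. A few named genes are not reported here.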

Additional observations from a re-analysis of the deposited data

Results flagged for a closer look

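In each group of 4 libraries, the summed FPKM of every list was examined for a single library far from the other 3, which chance gives in about 1 of 20 groups. It was met in 13 sums, out of 41 lists and 6 added lists, each examined once in neurobots and once in shams. The sums come from the same libraries and are not independent. NB1 was the lowest neurobot for neural progenitor factors (248.7 FPKM) and the highest for epidermal factors (3698 FPKM), axoneme genes (1852 FPKM) and ionocyte genes (2141 FPKM). NB2 was the highest for neuron structural genes (1476 FPKM). Among shams, SH1 was the highest for midbrain and isthmus factors (14.14 FPKM) and for hindbrain and spinal cord factors (54.09 FPKM), and the lowest for neuropeptide precursors (6.163 FPKM). SH2 was the highest for proneural factors (50.69 FPKM), glial genes (2250 FPKM) and lipoprotein and yolk metabolism genes (1295 FPKM), and the lowest for multiciliated cell regulators (144.8 FPKM). SH4 was the highest for lens genes (71.56 FPKM). A sum follows its most abundant members and can differ from the count of genes called. Ligand-gated receptor subunits, for example, were higher in 21 of 34 tested genes. Their sums were 59.98 to 87.38 FPKM in the neurobots and 85.7 to 97.66 FPKM in the shams.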

How the results depend on the processing

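Across 19 alternatives, 0 genes were called in opposite directions, and 69.0% to 99.8% of the 8065 calls were made again. The calls numbered 8019 with RLE size factors, 7278 with library size alone, 9057 without a filter, 6608 with a CPM filter, 10852 in DESeq2 and 9485 with all 12 libraries. In limma 8494 and 8557 were called at pseudocounts of 1 and 0.1. With the share of counts on genes under 1 kb as a covariate (added after the data were seen) 10457 were called, and without NB1, NB2 and SH2 (also added) 13152, 7243 higher and 5909 lower. Leaving out 1 library gave 6162 (without SH3) to 11067 (without NB1) calls, 4139 to 6277 higher and 2010 to 4790 lower, 56.72% to 67.57% of them higher. The differences in genes detected then ran from 405.2 to 1343 and in the share of the 100 most counted genes from -1.387 to 1.342 percentage points, and the 10 most counted genes gave -1.215. The labels do not say that replicate numbers pair the samples. Correlations of the deviations of same-numbered libraries from their group means were -0.372, 0.456, -0.058 and 0.114. Deviations from a mean of 4 libraries depend on each other, so these values cannot show whether a number marks a shared clutch or day. A replicate block gave 7018 calls, 4178 higher and 2840 lower.

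Of 313 named genes, 257 were called. None of these changed sign, 214 were called under every alternative that gave a value and 43 lost the call in at least 1. Of the 313 genes, 254 had a value under all 19 alternatives, 58 under 18 and 1 under 17, since genes below a filter have none. Sign changes were limited to genes that were not called. The log2 fold change of COX1 was 0.091, and -0.20 to 0.24 with 1 library left out, -0.18 with the covariate and -0.12 without the 3 libraries. For the log2 fold change of krt12.4.S (-0.14) the values were -0.47 to 0.048 with 1 library left out. Likewise, the log2 fold change of krt7.S (0.32) was -0.20 without the 3 libraries. In the same way, the log2 fold change of hspa1l.S (0.08) came to -0.11 to 0.32 with 1 library left out, -0.23 with the covariate and -0.08 without the 3 libraries. The log2 fold change of krt12.4.L was 0.088, and -0.34 to 0.29 with 1 library left out, -0.038 with library size alone, -0.061 with the replicate block, -0.01 in limma at a pseudocount of 1 and in limma at a pseudocount of 0.1, -0.38 with the covariate and -0.53 without the 3 libraries. For the log2 fold change of krt8.1.L (0.033) the values were -0.38 to 0.16 with 1 library left out, -0.07 with library size alone and with the replicate block, -0.021 in limma at a pseudocount of 1 and in limma at a pseudocount of 0.1, -0.26 with the covariate and -0.33 without the 3 libraries. Likewise, the log2 fold change of krt8.1.S (0.24) was -0.40 to 0.41 with 1 library left out, -0.10 with the covariate and -0.45 without the 3 libraries. In the same way, the log2 fold change of cox4i1.S (0.29) came to -0.056 with the covariate. The log2 fold change of bmp4.S was 0.028, and -0.14 to 0.12 with 1 library left out, -0.038 with library size alone, -0.062 with the covariate and -0.03 without the 3 libraries. For the log2 fold change of eya1.S (-0.007) the values were -0.094 to 0.16 with 1 library left out, 0.007 with RLE, 0.012 with the CPM filter, 0.01 in DESeq2, 0.008 in limma at a pseudocount of 1, 0.003 in limma at a pseudocount of 0.1, 0.18 with the covariate and 0.10 without the 3 libraries. Likewise, the log2 fold change of mip.S (-0.20) was -0.38 to 0.11 with 1 library left out and 0.055 with the covariate. Counts of called genes per list moved by more than 1.5 times in 216 of 1786 comparisons. Genes under the count minimum in NB1 and silent in shams were not tested, and at these depths 3 counts per library set the lower limit of every fold against silence. The number of bots per pool cannot be told apart from the group, nor the submission of NB1 from NB1 itself.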

Other observations

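Several gene groups were drawn up after the values had been seen and are given as description. Of 57 neuropeptide precursors in the files, 15 were tested, 13 of them higher and 0 lower. Their median was 5.53, or 4.58 with genes at the floor set to their bounds. Of the 13, 6 were at the floor in shams and entered the test only through the neurobots. The count therefore compares less directly with the shares over all genes tested. Neuropeptide Y, npy.L, a peptide of inhibitory neurons, measured 11.7, 7.25, 6.78 and 5.78 FPKM in NB1 to NB4 and 0 in all 4 shams. NB1 was the highest neurobot and no sham had a count (at least 69-fold higher, adjusted p = 5.55e-05). Tachykinin, tac1.L, measured 0.431, 11.3, 4.86 and 6.08 FPKM in NB1 to NB4 and 0.1004, 0.0732, 0.0283 and 0.0246 FPKM in SH1 to SH4. Here NB1 was close to the shams and NB2 the highest (log2 fold change 6.51 ± 0.96, adjusted p = 0.000732). Of 10 vent homeobox genes in the files, targets of BMP4 in the frog gastrula, 4 were tested. All 4 were higher, 1 of them at the floor in shams (median 5.89, or 5.71 with genes at the floor set to their bounds). The gene ventx2.2.L measured 4.73, 21.6, 13.8 and 12.6 FPKM in NB1 to NB4 and 0.144, 0.0233, 0.352 and 0.164 FPKM in SH1 to SH4. It was above every sham in every neurobot (log2 fold change 6.24 ± 0.64, adjusted p = 9.24e-05), and the biobots were between 0.026 and 0.147 FPKM.

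Complement and coagulation genes were higher in 13 of 22 tested genes and lower in 0 (median 1.66). Complement component c9.L, which forms the pore of the membrane attack complex, measured 718, 1270.1, 777 and 694 FPKM in NB1 to NB4 and 25.7, 43, 28.8 and 31.1 FPKM in SH1 to SH4. It was abundant in all neurobots (log2 fold change 4.71 ± 0.32, adjusted p = 1.2e-05), with biobots between 57.3 and 83.3 FPKM. The central component c3.L measured 1174, 838, 1360.1 and 1041 FPKM in NB1 to NB4 and 222, 213, 203 and 222 FPKM in SH1 to SH4 (log2 fold change 2.32 ± 0.25, adjusted p = 0.000118). Retinoic acid genes were higher in 16 of 27 and lower in 3 (median 1.48). The degrading enzyme cyp26c1.L measured 1.51, 6.88, 5.39 and 4.92 FPKM in NB1 to NB4 and 0, 0, 0.0156 and 0 FPKM in SH1 to SH4 (at least 108-fold higher, adjusted p = 2.93e-05). The synthesizing enzyme aldh1a2.L measured 3.01, 3.61, 4.23 and 1.94 FPKM in NB1 to NB4 and 0.135, 0.425, 0.266 and 0.384 FPKM in SH1 to SH4 (log2 fold change 3.35 ± 0.39, adjusted p = 0.000186). Of the FGF pathway genes 27 of 43 were higher and 1 lower (median 2.17), and of the Wnt pathway genes 30 of 59 were higher and 4 lower (median 1.35). At the floor in shams were 11 of the 27 FGF genes, 6 of the 30 Wnt genes and 4 of the 16 retinoic acid genes called higher. The feedback inhibitor of FGF receptors spry1.L measured 1.92, 2.49, 3.18 and 2.4 FPKM in NB1 to NB4 and 0.389, 0.486, 0.677 and 0.722 FPKM in SH1 to SH4 (log2 fold change 2.1 ± 0.26, adjusted p = 0.000279). The secreted Wnt antagonist dkk1.L measured 4.43, 4.26, 2.27 and 2.51 FPKM in NB1 to NB4 and 0.28, 0.385, 0.316 and 0.228 FPKM in SH1 to SH4 (log2 fold change 3.42 ± 0.36, adjusted p = 0.000101). The Wnt ligand wnt10a.L went the other way, with 1.08, 1.4, 3.04 and 3.28 FPKM in NB1 to NB4 and 15.5, 7.61, 10.3 and 14.9 FPKM in SH1 to SH4 (log2 fold change -2.49 ± 0.40, adjusted p = 0.00112). Its biobots, between 4.83 and 6.06 FPKM, lay between the groups.

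By protein domain, as the authors annotated the genes, 83 of 160 tested homeodomain genes were higher and 20 lower, and of the basic helix-loop-helix genes 39 of 98 were higher and 11 lower. Ionotropic glutamate receptors were higher in 14 of 17 and lower in 0, and genes with cadherin repeats in 39 of 78 and 8. Forkhead genes were higher in 13 of 40 and lower in 9. Dynein heavy chains, the motors of cilia and of cytoplasmic transport, were higher in 0 of 20 and lower in 7. Cytochrome P450 genes were higher in 14 of 76 and lower in 22. These counts stand beside 19.6% higher and 13.2% lower over all genes tested, and members of a family share sequence.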
